A study of Homo sapiens with 18 samples.

Results

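The nuclear-encoded subunits of the oxidative phosphorylation chain were followed in NIKS, a normal immortalized human keratinocyte line that is established and is grown on lethally irradiated mouse fibroblasts. Members were chosen by symbol: the NDUFA, NDUFB, NDUFC, NDUFS and NDUFV genes, SDHA to SDHD, CYC1 and the UQCR genes, COX4 to COX8, and the ATP5F1, ATP5M and ATP5P genes. Of 16472 gene IDs in the table, 84 matched, of which 78 are subunit genes and 6 are processed pseudogenes that the symbol pattern also caught. The subunit genes divide into 36 of complex I, 4 of complex II, 9 of complex III, 12 of complex IV (NDUFA4, which is built into that complex, is counted there) and 17 of complex V. All 78 subunit genes passed the filter on low values (at least 1 RPKM, the length- and depth-scaled read value, in at least 3 of 18 libraries). Of the pseudogenes, ATP5F1EP2, ATP5MC1P4 and ATP5MC1P6 passed it, and ATP5MFP2, ATP5MGP1 and ATP5PDP4 did not, so 81 members were tested.

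The RNA libraries came from 6 groups of 3 biological replicates. WT cells are wild type for SP100, a gene for a nuclear body protein that is itself induced by interferon, and KO cells carry an SP100 knockout. Cells of each genotype were untreated (0 h) or were given human interferon alpha 2a (type I) at 25 ng/mL, with RNA taken after 12 or 48 h. Sample column names give 1 line name for each genotype, so genotype and line cannot be told apart. No untreated library at 12 or 48 h entered the comparisons, so interferon and time in culture cannot be told apart either. The labels call the replicates biological but do not say whether they were separate cultures, and the p-values measure the spread between these libraries. In RNA from whole cultures, fewer cells of a type and less RNA per cell cannot be told apart.

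The respiratory chain moves electrons from NADH (through complex I, NADH dehydrogenase) and from succinate (through complex II, succinate dehydrogenase) to complex III, the cytochrome bc1 complex, and on through cytochrome c to complex IV, cytochrome c oxidase, which reduces oxygen. Complexes I, III and IV pump protons, and complex V, the ATP synthase, uses the gradient to make ATP. Complex II is encoded wholly in the nucleus, while the other complexes combine nuclear-encoded subunits with a few encoded by mitochondrial DNA. Basal keratinocytes also draw heavily on glycolysis.

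Across genes, Pearson's r between replicates of the same group was 0.985 to 0.989. Relative depth spanned 0.842 to 1.267 of the mean. Labels, headers and processing notes give no batch. All 6 keratinocyte markers were in the table, with summed levels of 14490 to 17350 RPKM over the 18 libraries. Of 8 fibroblast markers 2 were in the table, summing to 1.40 to 3.18 RPKM, and of 5 melanocyte markers 1 was. Of 5 leukocyte markers, CD68 and CD14 were in the table. Their summed level moved with time, from 24.11 to 25.28 RPKM untreated to 53.07 to 58.85 at 12 h and 37.73 to 43.22 at 48 h in WT, and from 19.59 to 21.08 to 44.97 to 51.53 and 35.94 to 40.37 RPKM in KO. The part of this in the results at 12 h was not tested. SP100 was at 30.14, 31.91 and 27.90 RPKM in untreated WT and at 15.97, 14.22 and 15.21 RPKM in untreated KO libraries. The KO mean of SP100 was 50.5% of the WT mean at 0 h, 55.9% at 12 h and 46.9% at 48 h, so transcript from the gene was still counted in the KO line.

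Subunit genes were among the most abundant transcripts of these cells. The median of their mean levels was 130.3 RPKM, against 11.96 RPKM over all 13280 genes tested, and 59 of 78 lay in the top 10% of genes. By complex, the median level was 101.7 RPKM in complex I, 108.4 in II, 207.3 in III, 230.1 in IV and 261.9 in V. Within complex V the highest gene was ATP5MF (subunit f) at a mean of 723.8 RPKM and the lowest ATP5F1E (the epsilon subunit of the catalytic head) at 52.41 RPKM. The lowest member of all was COX6B2, the testis-type form of a complex IV subunit, at 1.779 RPKM; it made up 1.01% ± 0.083 (SD, n = 3) of the summed COX6B1 and COX6B2 level in untreated WT cells. Their median coding transcript was 707.5 bases long, against 1772 bases for the 11329 protein-coding genes tested. Another gene of the table overlapped 32 of the 78 in the annotation, 12 of them on the same strand. The strand setting of the counting is not given in the sources used here, so part of the signal of such genes may come from the partner.

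Promoters shared letters that the choice by symbol did not use. RefSeq promoters (GRCh38.p14) were matched by symbol for 64 of the 78 genes, and each entry, from 250 bases before the start to 50 after it, was searched on both strands for motifs of factors known for respiratory genes. The NRF1 motif (GCGCA, any base, then GCGC) stood in 25% of them against 5.78% of all 35116 promoters of that length, the ETS motif CCGGAAG (bound by the GABP factor, among others) in 31.2% against 10.3%, and the YY1 motif AAGATGGC in 17.2% against 2.89%. The interferon response core (GAAA, any 2 bases, GAAA) was in 0 of 64 against 3.57% of all promoters, and the TATA letters TATAAA in 9.38% against 11.5%. The median GC content was 61.67% against 58.67%, and the median count of CG pairs was 23.5 against 14. The NRF1 and ETS letters themselves hold CG pairs, and the part of this difference in the motif shares was not tested. Matches of different motifs were allowed to overlap. Printed below are the promoter of NDUFA9, the subunit gene that rose at 12 h, and, for the NRF1, ETS and YY1 motifs in turn, a gene with a match in the 250 bases before its start. Each of these was the gene not yet shown with the largest mean log2 fall at 12 h over both genotypes, among genes with such a match that were called lower in both genotypes under both scalings. The 250 bases before the start are shown, and capitals mark every match to the 5 motifs within them.
NDUFA9, chr12:4648864-4649113, plus strand: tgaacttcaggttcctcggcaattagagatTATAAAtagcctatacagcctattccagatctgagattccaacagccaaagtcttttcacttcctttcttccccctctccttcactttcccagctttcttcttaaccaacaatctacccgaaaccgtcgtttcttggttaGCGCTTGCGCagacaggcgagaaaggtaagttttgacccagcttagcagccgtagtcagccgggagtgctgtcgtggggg
SDHD, chr11:112086623-112086872, plus strand: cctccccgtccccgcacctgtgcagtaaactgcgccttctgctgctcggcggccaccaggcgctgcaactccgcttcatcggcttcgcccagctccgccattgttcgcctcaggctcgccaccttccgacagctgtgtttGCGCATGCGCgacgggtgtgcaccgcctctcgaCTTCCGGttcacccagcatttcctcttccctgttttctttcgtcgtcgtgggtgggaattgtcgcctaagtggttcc
NDUFS1, chr2:206159445-206159694, minus strand: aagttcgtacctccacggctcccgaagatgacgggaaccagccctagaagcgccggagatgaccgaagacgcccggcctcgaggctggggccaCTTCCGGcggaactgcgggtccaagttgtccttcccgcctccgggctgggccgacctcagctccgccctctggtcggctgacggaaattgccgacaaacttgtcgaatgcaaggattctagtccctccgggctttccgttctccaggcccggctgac
ATP5PF, chr21:25735055-25735304, minus strand: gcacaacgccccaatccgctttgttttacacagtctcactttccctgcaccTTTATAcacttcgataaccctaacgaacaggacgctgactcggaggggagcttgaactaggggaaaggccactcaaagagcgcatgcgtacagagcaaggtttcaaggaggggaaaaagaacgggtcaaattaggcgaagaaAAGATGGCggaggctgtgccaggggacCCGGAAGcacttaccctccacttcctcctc
In NDUFA9 the capitals are a TATAAA match and an NRF1 match 80 to 71 bases before the start; its entry also holds a YY1 match after the start, beyond the bases shown. SDHD has an NRF1 match followed by an ETS match. NDUFS1 holds an ETS match, and ATP5PF holds a YY1 and an ETS match within 57 bases of its start besides a TATA match read on the other strand. So the gene that rose and a gene that fell both carry the NRF1 letters. A match is a description of letters and was not tested as a binding site.

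At 12 h of interferon, subunit transcripts of all 5 complexes were lower than in untreated cells of the same genotype. The summed level of the 78 genes went from 15840 ± 296.7 to 13380 ± 157.3 RPKM (SD, n = 3) in WT cells, 84.48% of untreated, and from 16140 ± 58.45 to 13080 ± 197.1 RPKM in KO cells, 81.04% of untreated. In limma's moderated test on log2(RPKM + 1) over all genes, with Benjamini-Hochberg adjustment at 0.05, WT had 63 of the 78 subunit genes lower and 1 higher, and KO had 71 lower and 1 higher. Over all genes tested, 29.8% were called lower and 15.1% higher in WT, and 32.8% lower and 16.0% higher in KO. The median log2 change over the 78 was -0.24 in WT and -0.29 in KO. It was -0.085 and -0.095 over all genes, and -0.04 and -0.05 over the 3369 other genes with a mean of at least 30 RPKM. Those 3369 genes were chosen by level alone and not by transcript length, in which the subunit genes also differ from most genes. In both genotypes 62 subunit genes were called lower. For this and the later counts that join genotypes, times or scalings, no share over all genes was computed.

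**Figure D1:**
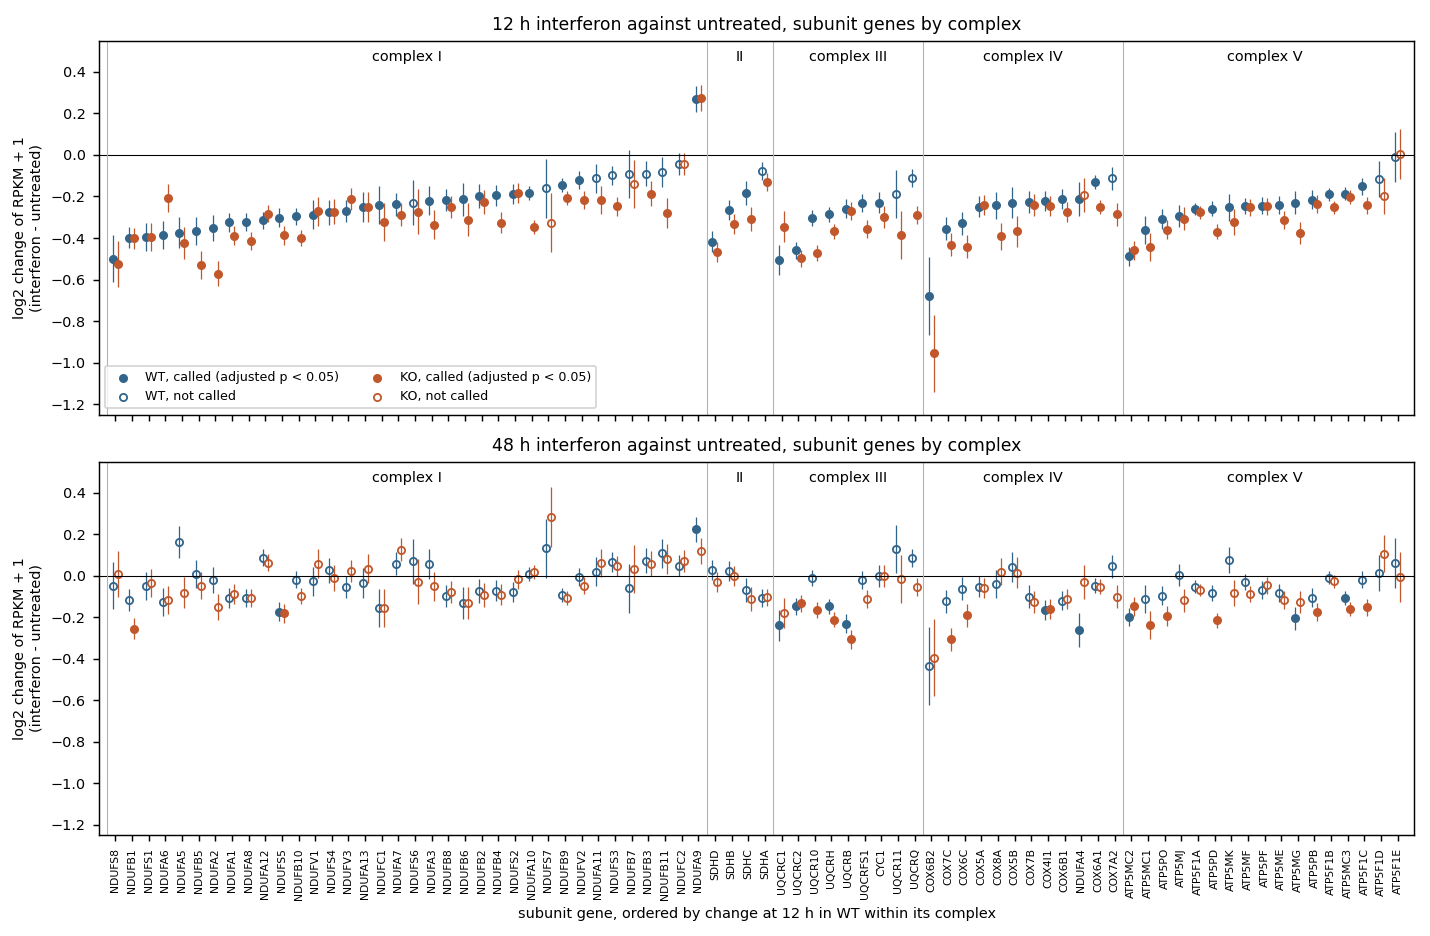
Log2 change of RPKM + 1 against untreated cells for each of the 78 subunit genes, grouped by complex, at 12 h (upper) and 48 h (lower) of interferon; points are limma estimates, bars 1 standard error, filled points are called at an adjusted p under 0.05, blue WT and orange KO. At 12 h nearly all points lie below 0 with NDUFA9 as the called exception, and at 48 h most points are not called.

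The deposited scale matters to the size of that count. With libraries rescaled by the median of ratios to all genes, 42 subunit genes were lower and 1 higher in WT, and 56 lower and 1 higher in KO, with medians over the 78 of -0.14 and -0.19. The same scaling turned the split over all genes from 2005 higher and 3959 lower to 2895 and 2712 in WT, and from 2123 and 4362 to 3156 and 3040 in KO. Under both scalings and in both genotypes, 39 subunit genes were lower.

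In complex I, 27 of 36 genes were lower in WT and 32 in KO at 12 h. NDUFS8, a catalytic core subunit that holds iron-sulfur clusters, had 90.92, 80.46 and 75.51 RPKM in untreated WT and 63.96, 51.18 and 58.88 RPKM at 12 h. In KO it had 74.05, 73.40 and 92.58 RPKM untreated and 47.50, 63.04 and 55.47 RPKM at 12 h. All 12 h libraries of NDUFS8 lay below all untreated ones in each genotype, with log2 changes of -0.50 ± 0.112 (SE, adjusted p = 0.00194) in WT and -0.53 ± 0.112 (adjusted p = 0.00116) in KO. Other large changes included those of the accessory genes NDUFB1 (log2 changes of -0.40 in WT and -0.40 in KO), NDUFA6 (-0.38 and -0.21), NDUFA5 (-0.37 and -0.42), NDUFB5 (-0.37 and -0.53) and NDUFA2 (-0.35 and -0.57), and the core gene NDUFS1, the largest subunit (-0.40 and -0.40). Of the 7 catalytic core genes, 5 were lower in WT and 6 in KO, with median log2 changes of -0.19 and -0.27. Of the 29 accessory genes, 22 were lower in WT and 26 in KO, with medians of -0.24 and -0.28.

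NDUFA9, an accessory subunit next to the ubiquinone site, went the other way. Its levels were 68.53, 66.92 and 71.21 RPKM in untreated WT and 76.11, 90.93 and 83.32 RPKM at 12 h. In KO they were 70.06, 73.32 and 74.14 RPKM untreated and 84.94, 91.95 and 86.89 RPKM at 12 h. The groups did not overlap in either genotype, and the log2 change was 0.27 ± 0.0608 (SE) in both, with an adjusted p of 0.00194 in WT and 0.00151 in KO. Among genes tested, 18.5% in WT and 18.4% in KO had 12 h libraries all above the untreated ones, and 35.2% and 36.8% had them all below. NDUFC2 was not called, at 138.60, 125.27 and 131.84 RPKM untreated and 124.77, 122.60 and 136.57 RPKM at 12 h in WT, with a log2 change of -0.04 ± 0.0519 (adjusted p = 0.526) and overlapping groups. Also uncalled at 12 h in both genotypes were NDUFS7, a core subunit, and NDUFB7, with log2 changes of -0.16 and -0.09 in WT and of -0.33 and -0.14 in KO.

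In complex II, 3 of 4 genes were lower in WT and all 4 in KO. SDHD, a membrane anchor, had 112.83, 105.77 and 106.30 RPKM in untreated WT and 81.67, 82.37 and 78.45 RPKM at 12 h. Its KO values were 113.85, 107.34 and 106.27 RPKM untreated and 79.10, 77.01 and 79.58 RPKM at 12 h, again without overlap. The log2 change of SDHD was -0.42 ± 0.0484 (SE, adjusted p = 4.85e-06) in WT and -0.47 ± 0.0484 (adjusted p = 1.13e-06) in KO. SDHA, the flavoprotein that oxidises succinate, had the smallest log2 change of the 4, -0.08 in WT, not called, and -0.13 in KO. Between them lay SDHB, the iron-sulfur subunit, at -0.27 and -0.33, and SDHC, the other anchor, at -0.18 and -0.31.

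In complex III, 7 of 9 genes were lower in WT and 9 of 9 in KO, and the summed level was the lowest of the 5 complexes relative to untreated cells, at 81.45% in WT and 78.89% in KO. UQCRC1 and UQCRC2 are the core subunits that face the matrix. UQCRC1 had 351.17, 393.96 and 352.38 RPKM in untreated WT and 228.40, 270.41 and 274.98 RPKM at 12 h, a log2 change of -0.50 ± 0.073 (SE, adjusted p = 4.39e-05). In KO its change was -0.34 ± 0.073 (adjusted p = 0.00104). The log2 change of UQCRC2 was -0.46 ± 0.0411 for WT and -0.50 ± 0.0411 for KO (adjusted p = 2.91e-07 and 9.84e-08). The catalytic subunits CYC1 (cytochrome c1) and UQCRFS1 (the Rieske iron-sulfur protein) were each called lower in both genotypes, with log2 changes of -0.23 and -0.30, and of -0.23 and -0.36. UQCRQ and UQCR11, small supernumerary subunits, were called in KO but not in WT, and the difference between genotypes in these changes was not called for either gene.

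In complex IV, 11 of 12 genes were lower in each genotype. COX7C, a small supernumerary subunit, had 446.60, 385.20 and 403.16 RPKM in untreated WT and 312.97, 339.53 and 311.14 RPKM at 12 h. In KO it had 442.42, 466.03 and 450.08 RPKM untreated and 337.31, 337.20 and 331.74 RPKM at 12 h. The 12 h libraries of COX7C were thus all below the untreated ones, with log2 changes of -0.36 ± 0.0565 (SE, adjusted p = 0.000107) and -0.43 ± 0.0565 (adjusted p = 1.33e-05). COX6C changed by -0.33 in WT and -0.44 in KO, and COX4I1, a subunit tied to regulation by ATP, by -0.22 and -0.25. COX6B2 had the largest log2 change, -0.68 ± 0.186 in WT and -0.95 ± 0.186 in KO (adjusted p = 0.00749 and 0.000536), but at a level of 2.37, 2.66 and 2.69 RPKM untreated and 1.22, 1.21 and 1.26 RPKM at 12 h in WT. The uncalled gene was COX7A2 in WT (-0.11) and NDUFA4 in KO (-0.19).

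In complex V, 15 of 17 genes were lower in each genotype. ATP5MC1, ATP5MC2 and ATP5MC3 encode the same mature protein, subunit c of the rotor ring, and all 3 were lower. ATP5MC2 had 218.55, 222.31 and 204.72 RPKM in untreated WT and 153.93, 156.40 and 148.79 RPKM at 12 h, against 221.10, 208.57 and 202.00 and then 145.40, 156.40 and 156.58 RPKM in KO. These groups did not overlap, and its log2 change was -0.49 ± 0.0453 (SE, adjusted p = 4.15e-07) in WT and -0.46 ± 0.0453 (adjusted p = 6.89e-07) in KO. ATP5MC3 fell on the log2 scale by 0.19 ± 0.0326 (WT) and 0.20 ± 0.0326 (KO) (adjusted p = 0.000262 and 0.000102). The share of ATP5MC3 in the summed RPKM of the 3 genes was 44.3% ± 1.06 untreated and 48.3% ± 1.03 at 12 h in WT (SD, n = 3), and 44.2% ± 0.906 and 48.5% ± 0.680 in KO. All 4 peripheral stalk genes and all 5 supernumerary membrane genes were lower in both genotypes, with medians of -0.25 and -0.25 in WT and of -0.30 and -0.31 in KO.

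In the catalytic head of complex V, 3 of 5 genes were lower. ATP5F1A, ATP5F1B and ATP5F1C (subunits alpha, beta and gamma) had log2 changes of -0.26, -0.19 and -0.15 in WT and -0.28, -0.25 and -0.24 in KO. ATP5F1D (delta) changed by -0.12 and -0.20, not called. ATP5F1E (epsilon) was at 46.42, 54.64 and 64.85 RPKM untreated and 51.77, 60.15 and 51.97 RPKM at 12 h in WT, overlapping groups with a log2 change of -0.01 ± 0.12 (SE). Its retroposed copy ATP5F1EP2 is in the table, so reads of ATP5F1E may be split between them. The level counted for the copy was small, at a mean of 0.68 RPKM over the 18 libraries against 52.41 RPKM for ATP5F1E. How far reads were exchanged was not tested.

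**Figure D2:**
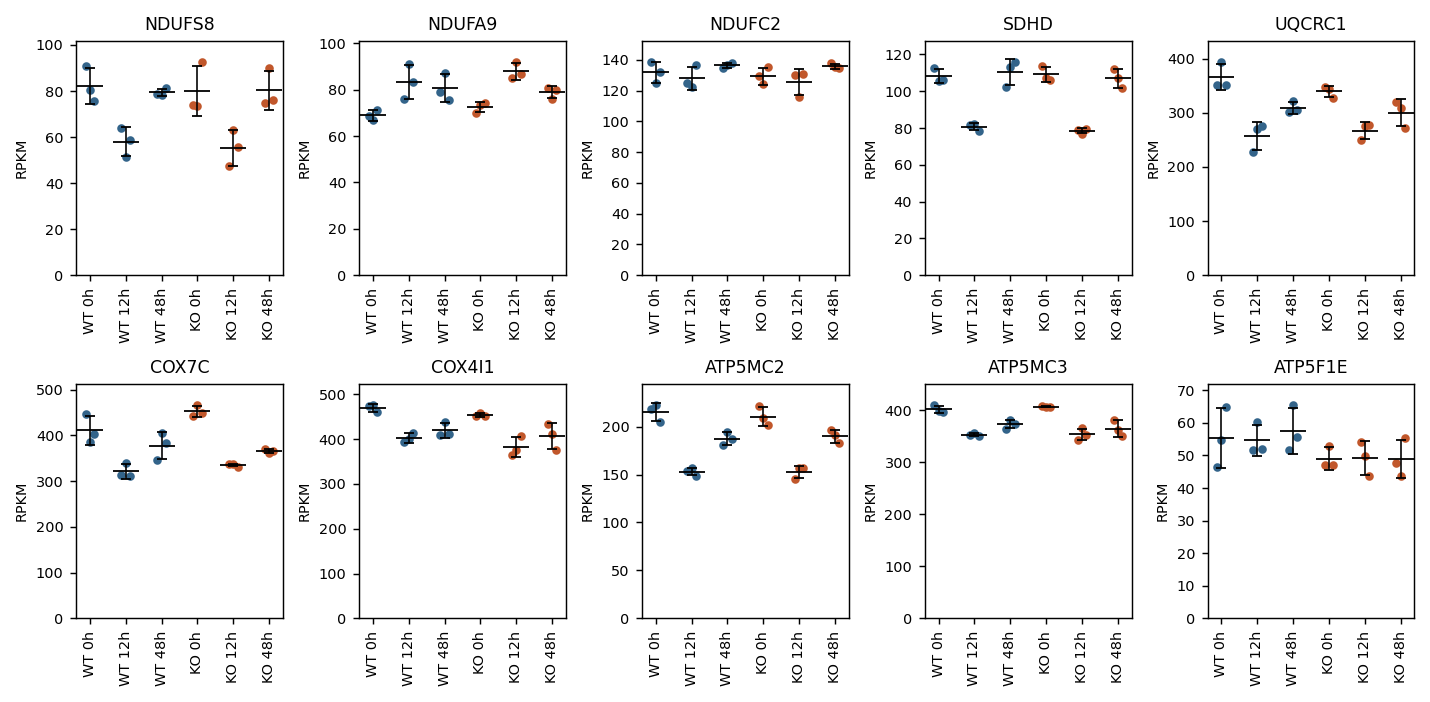
RPKM in each of the 18 libraries for 10 subunit genes (points; blue WT, orange KO), with the mean (line) and SD (bars) of each group of 3. NDUFS8, SDHD, UQCRC1, COX7C, COX4I1, ATP5MC2 and ATP5MC3 are lowest at 12 h, NDUFA9 is lowest untreated, and NDUFC2 and ATP5F1E overlap between times.

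The pseudogenes are reported as uncertain, because reads of a processed copy and of its parent can be exchanged in counting. ATP5MC1P4 was at 0.91, 0.71 and 0.19 RPKM untreated and 1.77, 2.04 and 0.97 RPKM at 12 h in WT, and at 0.64, 0.48 and 0.21 RPKM untreated and 1.54, 1.01 and 1.28 RPKM at 12 h in KO. It passed the filter mainly through its 12 h libraries, so no call is read from it. Its parent ATP5MC1 was lower, with log2 changes of -0.36 and -0.44. ATP5F1EP2 and ATP5MC1P6 were not called, and the latter lies within SERPINB5 on the same strand. The 3 pseudogenes that missed the filter had highest values of 0.64 (ATP5MFP2), 0.60 (ATP5MGP1) and 0.39 RPKM (ATP5PDP4).

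From 12 to 48 h of interferon most subunit genes rose again. In WT, 52 of the 78 were called higher and 0 lower, and in KO 59 were higher and 0 lower. The background over all genes tested was 24.6% higher with 11.3% lower in WT, and 27.7% higher with 14.0% lower in KO. The median log2 change over the 78 was 0.20 in WT and 0.23 in KO, against 0.07 and 0.08 over all genes. Of the 62 genes lower at 12 h in both genotypes, 41 rose again in both. Of the 39 lower at 12 h in both genotypes under both scalings, 21 were called higher from 12 to 48 h in both genotypes under both scalings. These joint counts have no share over all genes beside them. The fall and the rise were tested on the same 12 h libraries, so low values in those libraries favour both calls. Rescaled, WT had 28 subunit genes higher and 0 lower, and KO had 38 higher and 2 lower (NDUFA9 and UQCRB). With the same rescaling, the share of all genes tested that rose was 16.1% for WT and 19.1% for KO. The share that fell was 18.2% for WT and 21.2% for KO.

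By complex, 24 of 36 genes of complex I were higher at 48 than at 12 h in WT and 28 in KO, 2 and 3 of 4 in complex II, 8 and 7 of 9 in III, 6 and 8 of 12 in IV, and 12 and 13 of 17 in V. Within complex I the largest rises were those of NDUFA5 (0.54), NDUFS8 (0.45) and NDUFA12 (0.40) in WT and of NDUFS7 (0.61), NDUFS8 (0.53) and NDUFB5 (0.48) in KO. SDHD rose by 0.44 in each genotype, and COX6B2, at its low level, by 0.56 in KO. UQCRB, a ubiquinone-binding subunit of complex III, was not called between 12 and 48 h on the deposited scale, with log2 changes of 0.03 and -0.03. Rescaled, UQCRB was called lower in KO, as given above.

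At 48 h fewer subunit genes differed from untreated cells than at 12 h. The summed level of the 78 was 15140 ± 527 RPKM in WT, 95.64% of untreated, and 15040 ± 307.6 RPKM in KO, 93.16% of untreated (SD, n = 3). In WT, 10 members were lower and 1 higher, and in KO 16 were lower and 0 higher. Over all genes, 6.30% were lower and 6.52% higher in WT, and 7.42% lower and 5.90% higher in KO. The median log2 change over the 78 was -0.05 in WT and -0.08 in KO. Complex III had the lowest summed level again, at 92.12% of untreated in WT and 89.03% in KO, with 4 of 9 genes lower in each genotype.

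**Figure D3:**
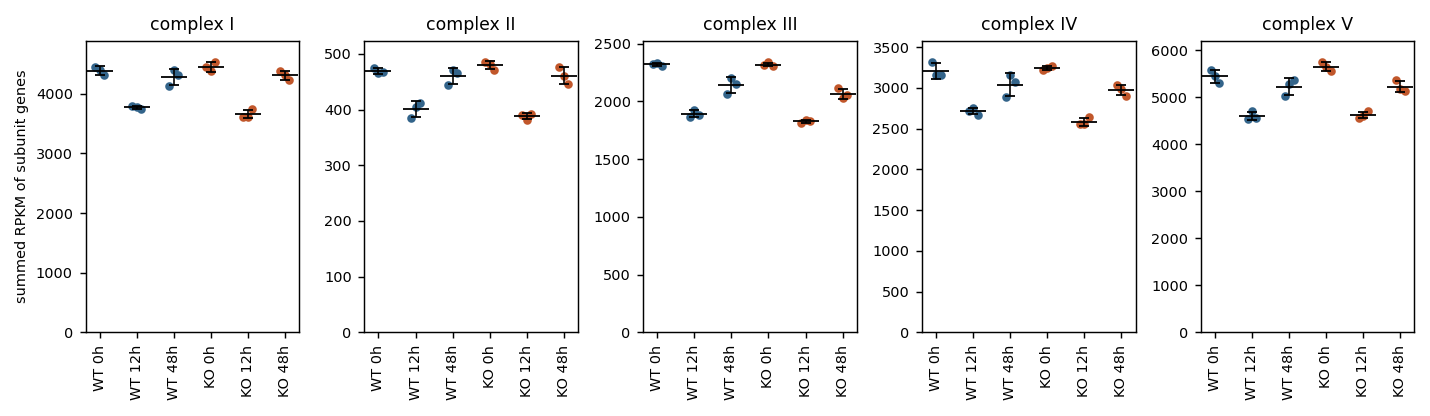
Summed RPKM of the subunit genes of each complex in each of the 18 libraries (points; blue WT, orange KO), with the mean (line) and SD (bars) of each group of 3; axes start at 0. In every complex the 12 h libraries lie below the untreated ones, and the 48 h means lie between, at 89.03% to 97.98% of untreated.

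Called lower at both 12 and 48 h in both genotypes were 7 genes, a joint count for which no share over all genes was computed. They were NDUFS5 in complex I and UQCRB, UQCRC2 and UQCRH (the hinge protein) in complex III. The others were COX4I1 in complex IV, and ATP5MC2 and ATP5MC3 in complex V. Both times were compared with the same untreated libraries, so the calls at 12 and 48 h are not independent. UQCRB had 581.99, 573.33 and 578.60 RPKM in untreated WT, 496.02, 496.09 and 458.58 RPKM at 12 h and 466.04, 518.74 and 494.48 RPKM at 48 h. In KO it had 570.04, 572.11 and 542.13 RPKM, then 481.27, 468.21 and 446.84, then 452.33, 435.33 and 475.93. Both treated groups lay below the untreated one and overlapped each other. The log2 change of UQCRB at 48 h was -0.23 ± 0.0452 (SE, adjusted p = 0.00264) in WT and -0.30 ± 0.0452 (adjusted p = 0.000211) in KO. COX4I1 was lower, with a log2 change of -0.16 in each genotype at 48 h (adjusted p = 0.0355 in WT and 0.0375 in KO). The member called higher at 48 h in WT was NDUFA9, at 79.08, 87.34 and 75.60 RPKM (0.22 ± 0.0608, adjusted p = 0.023); in KO, at 80.81, 75.95 and 79.81 RPKM, it was not called (0.12 ± 0.0608, adjusted p = 0.227). The WT count at 48 h rests on few libraries: it was 3 without untreated replicate 1, 3 without untreated replicate 2, 6 without untreated replicate 3, and 3, 7 and 7 without 48 h replicates 1, 2 and 3. The KO count was 7 without untreated replicate 1 and 10 without untreated replicate 2 or without 48 h replicate 2 or 3.

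Few differences between the genotypes were called among these genes. In untreated cells 0 of 81 members were called between KO and WT, at 48 h 0 were called, and at 12 h 1 was lower in KO. Over all genes tested 4.89% were called untreated, 2.02% were called lower at 12 h, and 4.19% were called at 48 h. At an unadjusted p under 0.05 in limma there were 9, 16 and 3 of the 78 subunit genes untreated, at 12 h and at 48 h, where all genes tested had shares of 18.1%, 17.0% and 16.4%. The log2 differences of the 78 genes, KO minus WT, lay between -0.20 and 0.14 untreated, -0.28 and 0.10 at 12 h, and -0.23 and 0.13 at 48 h. The called gene was COX6A1, a complex IV subunit, at 331.34, 323.10 and 329.07 RPKM in WT and 293.14, 292.67 and 301.21 RPKM in KO at 12 h. Its difference was -0.15 ± 0.0349 (SE, adjusted p = 0.0249), and it was not called when the 12 h replicate 1 of either genotype or WT replicate 3 was left out, nor in the fit on those 6 libraries alone.

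The response to interferon was compared between genotypes by an interaction term, the KO change minus the WT change. At 12 h 0 members were called and 8 had an unadjusted p under 0.05 in limma. At 48 h 0 were called and 6 had such a p. Of all genes tested, 0.0753% were called at 12 h and 0.0828% at 48 h, and 5.75% and 6.22% had such a p. The smallest adjusted p at 12 h was 0.571, for NDUFA10 (-0.16 ± 0.0475, SE), an accessory subunit of complex I. The median interaction over the 78 genes was -0.06 at 12 h, when 64 of them lay below 0, and -0.02 at 48 h. Over all genes it was -0.01 each time. The 78 genes were measured in the same libraries, so their signs are not independent, and 64 is not read as a difference between genotypes. UQCR10 was below the unadjusted threshold at both times, with interactions of -0.17 ± 0.0541 and -0.16 ± 0.0541 (adjusted p = 0.631 and 0.714).

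The 13 subunits encoded by mitochondrial DNA were read beside the nuclear-encoded ones. At 12 h, 7 were lower and 0 higher in WT (median log2 change -0.47), while in KO MT-ND3 was lower, MT-ND1 was higher and 11 were not called (median -0.22). At 48 h, 9 were lower in WT (median -0.78) and 3 in KO (median -0.11), at a time when most nuclear-encoded genes were uncalled. Over all genes tested, 29.8% were lower in WT and 32.8% in KO at 12 h, and 6.30% and 7.42% at 48 h. MT-ATP6, MT-ATP8 and MT-CO3, which stand side by side in the mitochondrial genome, were lower at 48 h in both genotypes, with log2 changes of -1.38, -1.29 and -1.37 in WT and -0.73, -0.77 and -0.70 in KO. The summed RPKM of the 13 varied between replicates, at 43930, 45940 and 41840 in untreated WT, 38000, 25800 and 34400 at 12 h, and 34170, 24610 and 18600 at 48 h. In KO the sums were 29900, 34170 and 31920, then 28850, 27880 and 25320, then 23630, 30550 and 33750, so the KO groups at 0 and 48 h overlap. All 13 lay below 0 in untreated KO against WT (median -0.44), with 0 called and 11 at an unadjusted p under 0.05 in limma. At 48 h all 13 interactions lay above 0 (median 0.67), with 0 called and 10 at an unadjusted p under 0.05 in limma. Over all genes tested, 18.1% had such a p in untreated KO against WT and 6.22% in this interaction. The 13 genes were measured in the same libraries, so their signs are not independent.

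Assembly factors build the complexes and are not part of them. Their counts at 12 h, and the 12 h counts of the lists that follow, are to be read against the shares of all genes tested. Those shares were 29.8% lower and 15.1% higher in WT, and 32.8% lower and 16.0% higher in KO. In the list for complex III, 5 of 8 were lower in WT and 6 of 8 in KO (medians -0.35 and -0.49), led by LYRM7, which delivers the Rieske protein, at -0.51 and -0.88, and UQCC2 at -0.49 and -0.62. SDHAF4, an assembly factor of complex II, was lower, at -1.10 and -1.32, among 2 and 3 of 4 lower. For complex IV, WT had 6 of 20 lower and 3 higher, and KO had 12 lower and 3 higher. COA5 was the lowest (-0.72 and -1.06), and COA7 (0.35 and 0.39), COX20 (0.29 and 0.41) and SCO1, a copper chaperone (0.16 and 0.16), were higher. For complex I, 4 of 14 were lower in WT and 7 in KO, NUBPL, an iron-sulfur cluster factor, the most at -0.36 and -0.55. The shares lower in WT in the complex I and complex IV lists thus lay near that of all genes. Outside the symbol pattern, ATP5IF1, the inhibitor of the ATP synthase, was lower, at -0.47 and -0.61, and COX7A2L at -0.34 and -0.38, whereas CYCS, cytochrome c, was at 0.08 and 0.04, not called. NDUFAB1, a complex I subunit gene that the pattern also misses, had means of 132.8 ± 7.02 RPKM untreated and 124.7 ± 7.85 at 12 h in WT (SD, n = 3). Its KO means were 143.6 ± 5.44 RPKM untreated and 122.2 ± 6.01 at 12 h.

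Enzymes of the tricarboxylic acid cycle, which supplies NADH and succinate, were lower in 8 of 13 genes in WT and 9 in KO at 12 h (medians -0.16 and -0.21). SUCLG2, of succinyl-CoA synthetase, was the lowest at -0.44 and -0.50, and IDH3A, a subunit of isocitrate dehydrogenase, was higher by 0.64 and 0.67. Glycolysis genes went mostly up: 11 of 18 were higher and 4 lower in each genotype, with medians of 0.16 and 0.16. SLC2A1, the glucose transporter GLUT1, was at 96.3 ± 2.31 RPKM untreated, 227.1 ± 8.68 at 12 h and 111.7 ± 6.05 at 48 h in WT (SD, n = 3), a log2 change of 1.23 at 12 h and 1.22 in KO. HK2, a hexokinase, rose by 0.89 and 0.84, and LDHA, which makes lactate, by 0.54 and 0.52. The muscle-type phosphofructokinase PFKM was lower, at -0.52 and -0.73, and HK1 at -0.36 and -0.49. At 48 h WT had 3 glycolysis genes higher and 5 lower, and KO had 1 higher and 6 lower.

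Ribosomal protein genes were read as another set of abundant, short transcripts. Of 82 cytosolic ribosomal protein genes, 72 were lower and 0 higher at 12 h in WT and 76 lower and 0 higher in KO, with medians of -0.24 and -0.29 that match those of the subunit genes to 2 decimals. At 48 h 50 were lower in WT and 58 in KO, with medians of -0.16 and -0.20, where 6.30% and 7.42% of all genes tested were lower. Of 75 mitochondrial ribosomal protein genes, 17 were lower and 11 higher in WT at 12 h, and 27 lower and 7 higher in KO, with medians of -0.04 and -0.09. MRPS17 was higher (0.76 and 0.56) and MRPL33 lower (-0.50 and -0.70). Of 12 regulators of mitochondrial biogenesis, 5 were higher and 2 lower in WT at 12 h, and 2 were higher and 3 lower in KO. TFAM, which packages and transcribes mitochondrial DNA, was higher by 0.28 in WT and 0.20 in KO. GABPA, a factor of the ETS motif above, was lower, at -0.25 and -0.24; it overlaps ATP5PF on the other strand. GABPB1, the partner of GABPA, was at 0.21 in WT, called higher, and at 0.18 in KO, not called. TFB1M, a methyltransferase of the mitochondrial ribosomal RNA, was lower, at -0.45 and -0.53. NRF1 and YY1 were not called, with log2 changes of -0.01 and -0.04 in WT. Of the 64 genes with a promoter entry, 12 of 16 with the NRF1 motif were lower at 12 h in both genotypes against 39 of 48 without it, 16 of 20 with the ETS motif against 35 of 44, and 9 of 11 with the YY1 motif against 42 of 53.

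**Figure D4:**
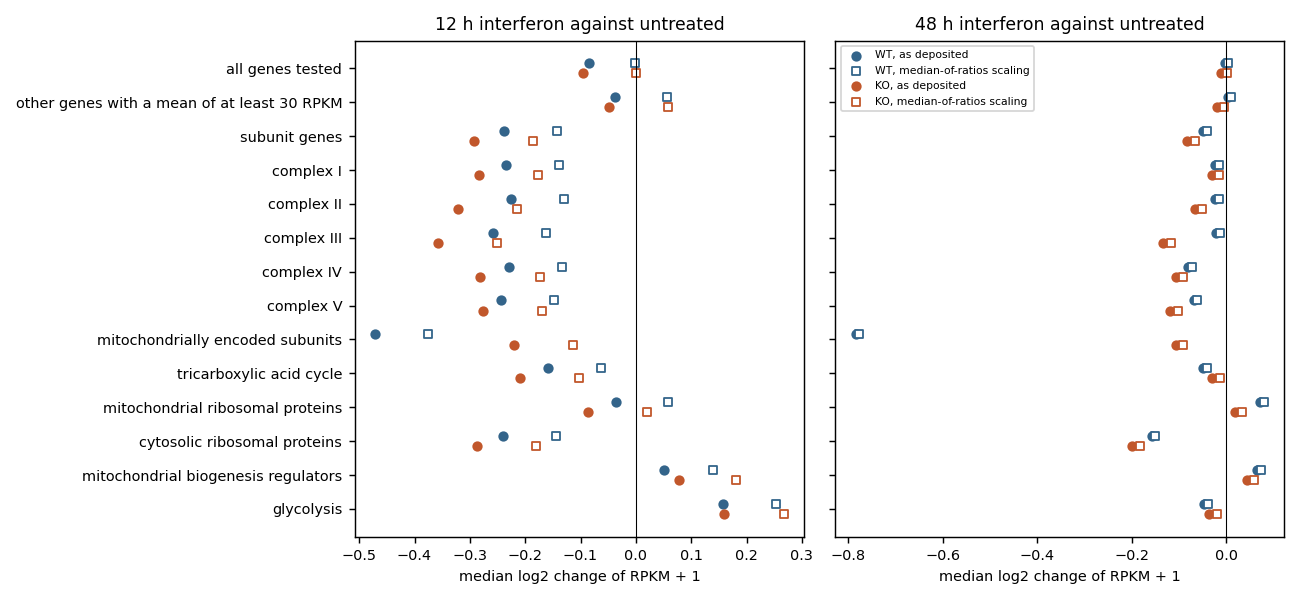
Median log2 change of RPKM + 1 against untreated cells at 12 h (left) and 48 h (right) for all genes tested, other abundant genes, the subunit genes, each complex and the other lists; filled circles are the deposited scale, open squares the median-of-ratios scaling, blue WT and orange KO. Every complex lies left of all genes tested at 12 h under both scalings, glycolysis lies right of 0, and at 48 h the mitochondrially encoded subunits of WT lie farthest left.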

How the data were processed

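RNA-seq values of 18 libraries (6 groups of 3) were used as deposited. The authors deposited 1 table of RPKM values with 16472 Ensembl IDs, rounded to 2 decimals per the values in the file. The submitters' processing notes list cutadapt, STAR 2.6.1, RSEM 1.3.0, limma 3.50.3 and hg19, without roles; the annotation, the gene filter and the strand setting are not given in the sources used here. Symbols were found for 15666 IDs. 0 columns belonged to no sample.

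RPKM was transformed to log2(RPKM + 1), a scale that understates the change of low genes, and the 13280 genes with at least 1 RPKM in at least 3 libraries were fitted together in limma 3.58.1 under R 4.3.3. The fit used group means over all 18 libraries, variances with a trend, and Benjamini-Hochberg adjustment over all genes per comparison at 0.05. SEs are limma's. The model was tested on simulated data. Absolute depth is unknown; relative depth, from the smallest steps of 1267 low genes, spanned 1.5-fold, with 100% of pairs within 3%.

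Named genes were SP100, the highest and lowest member of each complex, up to 3 called members per direction, complex and comparison by size of change, members called alike in both genotypes, isoform families, all members under the filter, and up to 3 called genes per direction of each other list; further genes were named after their values were seen. The comparison with other genes of at least 30 RPKM, the groups by role and the printed promoters were also chosen after seeing the data. Members and lists were chosen with earlier results of these data known. Alternatives were a pseudocount of 0.1, no filter, a mean of at least 5 RPKM, the replicate block, leaving out each library, variances without a trend, a fit on the compared libraries alone and median-of-ratios scaling.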

Additional observations from a re-analysis of the deposited data

How the results depend on the processing

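No direction reversed. The counts here are over all 81 members tested, so those at 12 h in both genotypes and that from 12 to 48 h in WT include the pseudogene ATP5MC1P4. Counts of called members that moved by over 1.5 times were as follows. For 48 h against untreated in WT, 11 became 7 with median-of-ratios scaling, 6 in the fit on the compared libraries alone and 6 without a variance trend, and 3 to 11 with a library left out. For 48 h against untreated in KO, 16 became 7 in the fit on the compared libraries alone, and 7 to 18 with a library left out. For 48 h against 12 h in WT, 53 became 29 with that scaling. The 1 call of KO against WT at 12 h became 0 in the fit on the compared libraries alone, without a variance trend and with the replicate block, and 0 to 1 with a library left out. The 0 calls of KO against WT became 0 to 3 untreated and 0 to 1 at 48 h with a library left out.

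At 12 h, 43 of 65 calls in WT and 57 of 73 in KO held in every alternative. Of 278 member calls, 88 were lost under the scaling, 33 in the fit alone and 24 without a trend. Median changes over the members kept their sign except in KO against WT at 48 h (-0.03 to 0.01). Replicate numbers did not pair the libraries (same-number correlations of -0.0972 to 0.157, with 2 of 18 libraries closest to their own number). With the replicate block, 65 and 72 members were called at 12 h in WT and KO, and 11 of 278 calls were lost. Absolute depth is unknown, so no counting error could be given for low members such as COX6B2.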
